A study of Mus musculus with 3 samples.

Results

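This account covers 9 mouse genes of mast cells and basophils: the proteases Mcpt4, Cma1, Cpa3, Tpsb2 and Tpsab1, the histamine-forming enzyme gene Hdc, the IgE receptor genes Fcer1a and Ms4a2, and the basophil protease gene Mcpt8. They were chosen by symbol from the 22087 genes that could be named on an Affymetrix array, on which labelled RNA binds probes grouped into probe sets. Each of the 9 genes had 1 probe set that was annotated to it alone. The RNA came from mouse tumours that had been cut up, digested for 1 hour at 37 °C and sorted. All 3 samples, numbered 1 to 3 as in their titles, carried the genotype Dicer1 +/- and were DAPI-gated live stroma cells, that is cells negative for the endothelial surface protein PECAM1 and for tdTomato, the red fluorescent protein that marks the tumour cells in this sort. The series title sets ASD+/+ against ASD+/- stroma, a name that the labels do not spell out, and the ASD+/+ stroma was not analysed here. The labels name neither the mouse strain, age or sex nor the promoter that drives tdTomato, and they do not say whether 1 sample is 1 animal. The SDs below therefore measure only the spread between these 3 samples, part of which may be technical. With 1 array a sample, no difference between samples could be tested.

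The arrays had near-equal medians of 5.35, 5.34 and 5.36 on the log2 scale. Sample 1 stood apart in Xist, the transcript of the inactive X chromosome, with 9.78 against 3.43 and 3.49 in the others. Sample 2 did so in Lipf, a lipase gene of stomach and tongue glands, with 9.24 against 3.11 and 3.42. With gaps of this size the arrays do not read as repeats of the same RNA. Whether sex differs between the samples, as the Xist values would allow, was not tested. All 10 fibroblast markers were detected on every array, and so were all 11 neutrophil and all 10 macrophage markers. Of the 10 markers of endothelial cells, which the gate was meant to remove, 8 were detected on every array, and of the 8 myogenic markers 7. By the same rule, given below, 60.5% of named genes were detected on every array. On their weakest array the 8 endothelial markers exceeded the background reference by between 0.096 and 2.09.

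Mast cells are tissue-resident leukocytes that store proteases, histamine and heparin in granules. Allergen binding to IgE on their high-affinity receptor makes them release these granules. The receptor has an IgE-binding alpha chain (Fcer1a), an amplifying beta chain (Ms4a2) and a gamma chain shared with other Fc receptors (Fcer1g). Connective tissue mast cells of the mouse make the chymase Mcpt4, the chymase family member Cma1, the tryptases Tpsb2 and Tpsab1, and carboxypeptidase A (Cpa3). Basophils are short-lived blood leukocytes that carry the same IgE receptor and make Mcpt8 rather than Mcpt4 or Cma1. Hdc is used by both cell types and by immature and activated myeloid cells.

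Cma1, Mcpt4 and Mcpt8 belong to 1 gene cluster on chromosome 14, where the RefSeq table of assembly GRCm38.p6 lists Mcpt8 directly beside Mcpt4. Sequences before the transcript start are shown for Cpa3, Mcpt4 and Cma1, which were detected in every sample, and for Mcpt8, which was not, because mast cells and basophils both depend on GATA factors. The sequences are those of RefSeq (GRCm38.p6), which held windows for 7 of the 9 genes, and each line gives the 120 bases that end at the base before the start, on the gene's strand. Capitals mark the GATA motif, searched on both strands as GATA with A or T before it and A or G after it, so that reverse forms such as TTATCT also count.
Cpa3, chr3:20242182-20242301, minus strand: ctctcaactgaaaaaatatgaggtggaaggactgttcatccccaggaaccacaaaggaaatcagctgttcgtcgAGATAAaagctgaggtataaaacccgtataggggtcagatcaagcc
Mcpt4, chr14:56062311-56062430, minus strand: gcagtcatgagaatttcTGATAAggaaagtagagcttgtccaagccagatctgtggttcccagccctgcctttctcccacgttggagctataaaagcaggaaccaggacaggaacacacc
Cma1, chr14:55944676-55944795, minus strand: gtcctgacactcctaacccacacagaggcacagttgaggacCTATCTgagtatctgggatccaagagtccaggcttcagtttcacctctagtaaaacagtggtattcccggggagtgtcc
Mcpt8, chr14:56085198-56085317, minus strand: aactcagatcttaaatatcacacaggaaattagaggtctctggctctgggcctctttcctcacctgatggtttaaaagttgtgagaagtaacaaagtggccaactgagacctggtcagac

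In the 250 bases before the start, 6 of the 7 genes held at least 1 such GATA motif, against 26.5% of 32851 windows of that length over all genes. The match began 46 bases before the start in Cpa3, 79 in Cma1, 92 in Fcer1a and 103 in Mcpt4. In Hdc it began 221 bases before the start, outside the 120 bases of the printed format, and Ms4a2 held 3 matches. Matches did not follow detection as defined below. Ms4a2, with 3, was detected in no sample, and Fcer1a, with 1, was not detected in sample 3. Mcpt8 was the gene without a match, and these letters being absent from its window says nothing about the factor. The E-box CATGTG, also read on both strands, was found in Fcer1a alone (12.3% of all windows) and the palindrome CACGTG in none of the 7 (6.02%). An E-box and the GATA motif can overlap at their ends only, and a match describes letters, not a bound site.

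A gene was called detected where its log2 intensity on each array exceeded the 95th percentile of 1438 probe sets for olfactory, vomeronasal and taste receptors, which stood at 5.16, 5.11 and 5.20 in samples 1 to 3. By this rule 6 of the 9 genes were detected in all samples, against 60.5% of named genes. All 5 mast cell proteases and Hdc passed. Fcer1a passed in samples 1 and 2, and Ms4a2 and Mcpt8 passed in no sample. The reference decides the last 3: with its 90th percentile all 9 genes passed, and with its 99th percentile 5 did, Tpsab1 then missing it in sample 3.

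**Figure D1:**
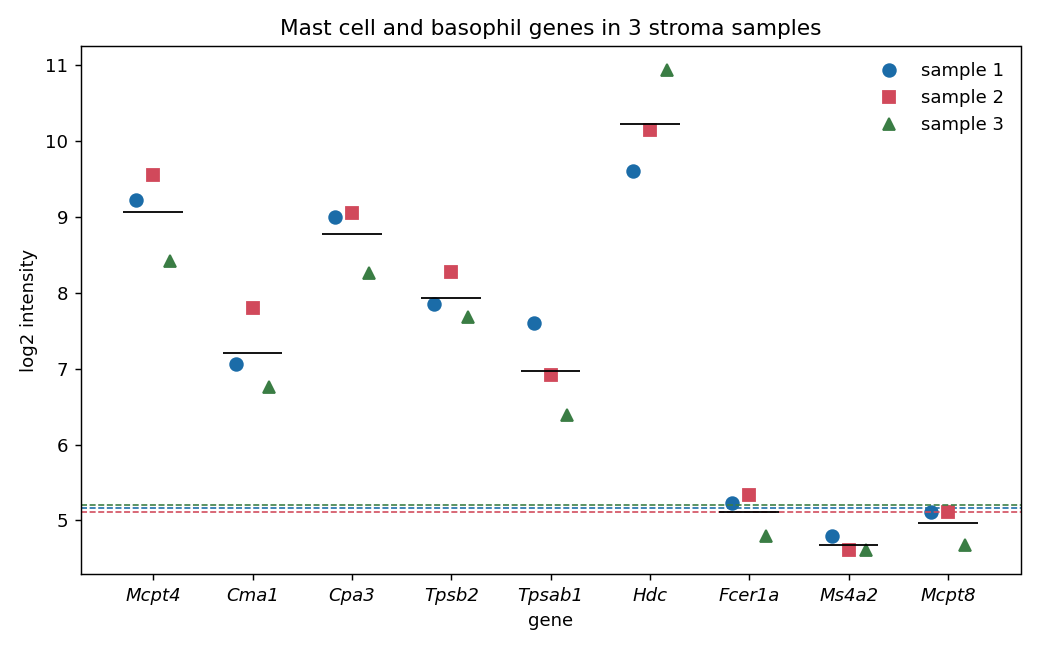
Log2 intensity (vertical axis) of the 9 genes (horizontal axis) in samples 1 to 3 (blue circles, red squares, green triangles), with the mean as a black bar and the background reference of each array as a dashed line in its colour. The 5 proteases and Hdc lie above the reference lines of 5.11 to 5.20 in every sample, while Ms4a2 and Mcpt8 lie below them and Fcer1a exceeds them by 0.22 at most; heights of different genes are not comparable because probes differ in brightness.

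The chymase gene Mcpt4 was at 9.22, 9.55 and 8.42 in samples 1 to 3, with a mean of 9.06 ± 0.58 (SD, n = 3). Sample 2 was the highest and sample 3 the lowest, a 2.19-fold span, and in sample 3 the value still lay 3.22 above the reference. Cma1, which lies in the same cluster, was at 7.06, 7.80 and 6.75, with a mean of 7.21 ± 0.54 (SD, n = 3). Its order over the samples was the same, and its span was 2.07-fold. Without sample 3 the range of Mcpt4 fell from 1.13 to 0.33 on the log2 scale, and without sample 2 that of Cma1 fell from 1.05 to 0.31, so Mcpt4 was set apart mainly by a low sample 3 and Cma1 by a high sample 2.

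Cpa3, whose product trims peptides after the chymases have cut them, was at 9.0, 9.05 and 8.26, with a mean of 8.77 ± 0.44 (SD, n = 3). Samples 1 and 2 were close, 0.052 apart, and sample 3 was lower. The tryptase gene Tpsb2 was at 7.86, 8.27 and 7.68, with a mean of 7.94 ± 0.30 (SD, n = 3) and the narrowest range of the 5 proteases, 0.59, which was 0.18 without sample 2. Tpsab1 was at 7.60, 6.91 and 6.39, with a mean of 6.97 ± 0.60 (SD, n = 3). It was the protease whose highest value fell in sample 1, where the others were highest in sample 2, and its range of 1.20 was 0.52 without sample 1. The difference between Tpsb2 and Tpsab1 was 0.26 in sample 1 and 1.36 and 1.28 in samples 2 and 3. The 2 tryptase genes are neighbours with similar sequences, and the RefSeq table, built on C57BL/6J, lists Tpsab1 as a transcribed pseudogene. Whether its probes also bind Tpsb2 transcripts was not tested.

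Sample 3 was thus the lowest for all 5 proteases, against 33.3% of the genes detected on at least 1 array. Sample 2 was the highest for 4 of them, against 34.2%. The median of the 5 deviations from the gene means was 0.16, 0.34 and -0.51 in samples 1 to 3, a 1.80-fold span between samples 2 and 3. Taken gene by gene, the median difference between samples 2 and 3 was 0.79 over the 5 proteases. Over the 13636 genes detected on at least 1 array this median was 0. Samples 2 and 3 were compared because earlier results of these data gave them as the extremes for Mcpt4 and Cma1. A difference over the proteases was therefore built in, and the median over all genes is not a fair background for it. In whole sorted samples, fewer mast cells and less RNA per mast cell cannot be told apart.

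Counting all 9 genes, 4 had a range above 1, which is 2-fold: Mcpt4, Cma1, Tpsab1 and Hdc. Among the 13636 genes detected on at least 1 array this share was 5.7%. Without sample 1 the count was 2 (Mcpt4 and Cma1), without sample 2 it was 2 (Tpsab1 and Hdc) and without sample 3 it was 0.

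Hdc went the other way. It was at 9.61, 10.15 and 10.94 in samples 1 to 3, with a mean of 10.23 ± 0.67 (SD, n = 3). Sample 3, the lowest for every protease, was the highest for Hdc, and sample 1 was the lowest, 2.52-fold below. The range of 1.33 was 0.54 without sample 3. The median protease deviation minus that of Hdc was 0.78, 0.42 and -1.22 in the 3 samples, so that the proteases stood 3.11-fold lower relative to Hdc in sample 3 than in sample 2.

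**Figure D2:**
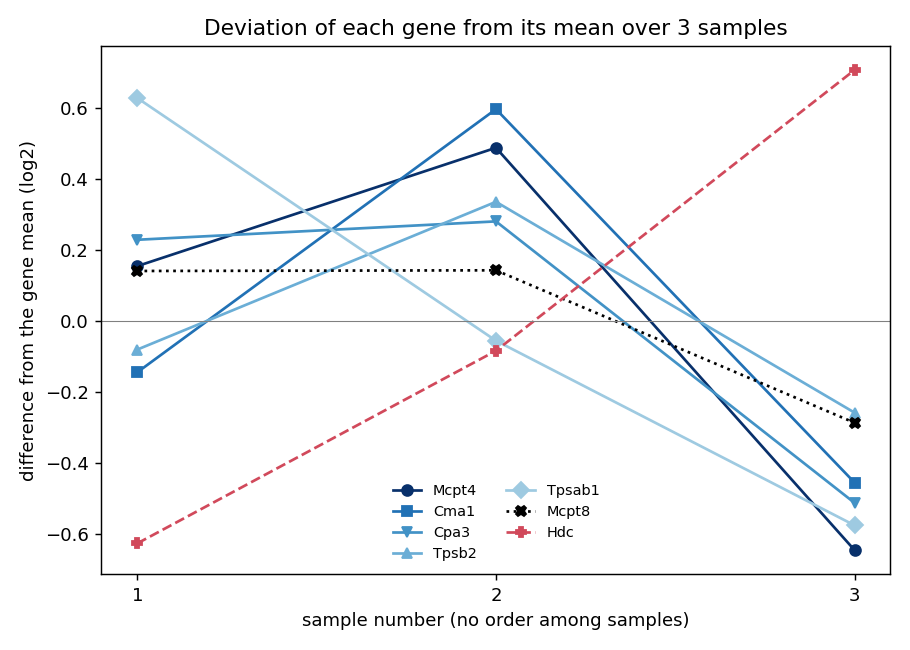
Difference of each gene from its own mean over the 3 samples (vertical axis, log2) by sample number (horizontal axis); blue lines are the 5 proteases, the dotted black line is Mcpt8 and the dashed red line is Hdc, and lines only join values of 1 gene. All proteases are below their mean in sample 3, between -0.26 and -0.64, where Hdc is 0.71 above its mean.

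The chains of the IgE receptor that are particular to mast cells and basophils gave weak signals. Fcer1a was at 5.23, 5.33 and 4.79, with a mean of 5.12 ± 0.29 (SD, n = 3). It exceeded the reference by 0.066 and 0.22 in samples 1 and 2 and lay 0.41 below it in sample 3. Ms4a2 was at 4.80 in sample 1 and at the identical value of 4.61 in samples 2 and 3, below the reference by at least 0.36 throughout. Its SD of 0.11 (n = 3) includes this tie and may understate the spread. Such ties occurred in 15.9% of named genes.

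Mcpt8, the basophil gene, was at 5.11, 5.11 and 4.68, with a mean of 4.97 ± 0.25 (SD, n = 3). All values lay below the reference, by 0.053, 0.0046 and 0.52. Samples 1 and 2 differed by 0.0019 and sample 3 was lower by 0.43. A probe set that fails detection does not show that the transcript was absent, and a difference between values at this level has no settled size.

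The mast cell genes were then set against Mcpt8 within each array, which removes a shift shared by all probe sets of an array. Brightness of the probe sets stays in each gap and cancels only when 1 gap is compared between samples. The value of Mcpt4 minus that of Mcpt8 was 4.11, 4.44 and 3.74 in samples 1 to 3, and for Cpa3 the gap was 3.89, 3.94 and 3.58. The gap was 1.96, 2.70 and 2.07 for Cma1, 2.75, 3.16 and 3.00 for Tpsb2 and 2.49, 1.80 and 1.71 for Tpsab1. Probes differ in brightness, so these gaps do not rank the transcripts within a sample. Each protease lay at least 1.196 above the reference in every sample, the least being Tpsab1 in sample 3. Since Mcpt8 was not above the reference on any array, the exact sizes of the gaps and their order over the samples are not settled.

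As measured, the median deviation of the proteases was 0.85 higher in sample 2 than in sample 3 and that of Mcpt8 0.43 higher, a difference of 0.42, and 0.36 without sample 1. The same limit applies to this difference, and the pair of samples was chosen from earlier results, as stated above. Fcer1a minus Mcpt8 was 0.12, 0.22 and 0.11, with both probe sets near or below the reference. Hdc minus Mcpt8 was 4.50, 5.04 and 6.26 in samples 1 to 3.

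Of 6 other basophil genes 4 were detected on all arrays, near the 60.5% of named genes, and none had a range above 1, where 5.7% of detected genes did. These shares set the list apart in neither respect. Prss34, a basophil and mast cell protease, had 5.66 in samples 1 and 3 and 5.94 in sample 2. Il4, a cytokine of basophils and T cells, stayed within 0.0088 over the samples at a mean of 5.17, close to the reference. Cyp11a1, a steroid-forming enzyme, was at 5.34, 5.47 and 5.34. Cd200r3, a surface receptor of basophils and mast cells, had the value 4.0 on all arrays and was not detected.

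Relatives of the mast cell proteases were mostly weak, with 1 of 8 measured genes detected on all arrays, against 60.5% of named genes. This was Ctsg, the cathepsin G gene of neutrophils and mast cells, at 9.54, 9.65 and 10.21. Mcpt1 and Mcpt2 are chymase genes of mucosal mast cells. Mcpt2 stood at 6.15 and 6.12 in samples 1 and 3 but only reached 3.09 in sample 2, where it was below the reference. Its range was 0.030 without sample 2, from 3.06. Gzmc, a granzyme of cytotoxic lymphocytes, was also below the reference in sample 2 alone, at 6.59, 4.09 and 6.92. The sizes of the Mcpt2 and Gzmc ranges are therefore not settled. Mcpt1 was below the reference in every sample, at 3.49, 3.07 and 5.18, as were Mcpt9, with a mean of 2.75 ± 0.16, and Cma2, with 3.49 ± 0.27 (SD, n = 3 each). Genes of this cluster share sequence, and whether their probe sets read each other's transcripts was not tested.

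Of 7 genes for storing and activating granule contents 6 were detected on all arrays, against 60.5% of named genes. Srgn encodes the core protein that carries granule heparin and was at 10.04, 9.89 and 10.22. Ctsc, the peptidase that activates granule proteases, had a mean of 10.57 ± 0.061 and Ndst2, which sulphates heparin, 7.53 ± 0.051 (SD, n = 3 each). Slc18a2, which loads histamine and serotonin into granules, was at 6.36, 6.39 and 6.43 and thus varied by 0.064 where Hdc varied by 1.33. Ranges above 1 were found for Hpgds, the prostaglandin D synthase, at 7.80, 8.01 and 6.67, and for Ltc4s, the leukotriene C4 synthase, at 6.83, 7.49 and 6.13. Both had the order of Mcpt4 over the samples, with ranges of 0.20 and 0.66 without sample 3, and both are also made by macrophages.

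Of 7 measured genes for mast cell identity 5 were detected on all arrays, against 60.5% of named genes. None had a range above 1, where 5.7% of detected genes did. With 7 genes these shares do not set the list apart. The list median was 0.016, 0.097 and -0.053 in samples 1 to 3, and 4 of the 7 were highest in sample 2. Kit, the stem cell factor receptor on which mast cells depend, was at 7.31, 7.50 and 7.97, and the transcription factor Gata2 at 6.22, 5.90 and 6.50, both highest in sample 3. The transcription factor Mitf, at 7.53, 7.57 and 7.24, and the surface enzyme Enpp3, at 6.07, 6.24 and 5.73, had the order of Mcpt4 (both named after their values were seen). Mrgprb1, a receptor gene of the Mrgpr family, was just above the reference with a mean of 5.50 ± 0.097 (SD, n = 3). Mrgprb2, the peptide receptor of connective tissue mast cells, was at 4.97, 5.11 and 4.97, below it in every sample. Rgs13, the remaining gene of the list, was also below the reference throughout, at 3.72, 3.31 and 3.43, with its lowest value in sample 2.

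Downstream of the IgE receptor all 13 measured genes were detected, against 60.5% of named genes, but most of them serve many leukocytes. Sample 3 was the highest for 9 of 13, against 32.8% of detected genes, and the list median was -0.060, -0.11 and 0.21. Fcer1g, the shared gamma chain, was at 11.16, 11.17 and 11.38, and the kinase Syk was at 8.57, 8.35 and 8.82. Fyn, a further kinase of the pathway, had a mean of 7.55 ± 0.078 (SD, n = 3). Lat, the adaptor of T cell and IgE receptor signalling, had the one range above 1, at 8.80, 7.03 and 7.61, and samples 2 and 3 alone were 0.57 apart. All 7 T cell markers also peaked in sample 1 and had their minimum in sample 2, and their part in the Lat values was not tested.

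Among factors that sustain mast cells, Kitl, the ligand of Kit, was at 5.59, 6.18 and 4.94, and Il33 was at 7.19, 7.82 and 6.37. Kitl lay below the reference in sample 3, so the size of its range is not settled. Both had a range above 1 and the order of Mcpt4 and Cma1, with sample 2 on top and sample 3 at the bottom, a pattern found in 18% of detected genes. Without sample 3 their ranges were 0.59 and 0.64. Tslp, an epithelial and stromal cytokine, was at 6.03, 6.31 and 5.96, and Il3 was not detected, with a mean of 3.64 ± 0.10 (SD, n = 3). Of the 4 histamine receptor genes, Hrh2 was detected on all arrays, at 5.72, 5.90 and 6.52, with the same order as Hdc. Hrh3 was at 5.05, 5.30 and 5.30, above the reference in samples 2 and 3. Hrh1 (4.89 ± 0.033) and Hrh4 (4.40 ± 0.19, SD, n = 3 each) were not detected.

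The medians of the fibroblast, pericyte and macrophage lists had the order of the protease median over the samples. Other lists did not: sample 3 held the maximum of 8 of the 10 endothelial and 5 of the 8 myogenic markers. All 10 fibroblast markers and all 9 pericyte markers peaked in sample 2, and sample 3 held the minimum of 10 and 8 of them. Their list medians were 0.064, 0.41 and -0.51 for fibroblasts and -0.084, 0.62 and -0.54 for pericytes, beside the 0.16, 0.34 and -0.51 of the proteases. The summed intensity of the fibroblast list was 14.03, 14.43 and 13.45 on the log2 scale, with Pdgfra at 8.55, 9.24 and 7.82 and Dcn at 11.64, 12.02 and 11.20. That of the pericyte list was 12.22, 12.97 and 11.74, with Rgs5 at 9.93, 10.64 and 9.47 and Acta2 at 10.54, 11.18 and 10.03. Macrophage markers had list medians of 0.18, 0.20 and -0.38, with the minimum of 7 of 10 in sample 3 and the maximum of 6 in sample 2, and a summed intensity of 13.77, 13.83 and 13.55. Cd68 was at 10.80, 10.88 and 10.82 and Adgre1 at 9.46, 9.19 and 8.47. The part of these shifts in the protease values was not tested.

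Neutrophil markers had the order of Hdc. Sample 3 held the maximum of 10 of the 11 markers and sample 1 the minimum of 8, and the list medians were -0.48, -0.042 and 0.45 beside -0.63, -0.083 and 0.71 for Hdc, while the summed intensity was 14.39, 14.55 and 14.85. S100a8 and S100a9, near the top of the scale, hardly moved, with ranges of 0.039 and 0.088. All markers of the fibroblast, pericyte, macrophage and neutrophil lists were detected on every array. The part of neutrophil RNA in the Hdc values was not tested.

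Markers of eosinophils, another granulocyte of tissues, formed a different pattern. Of the 7 measured, 2 were detected on all arrays, against 60.5% of named genes, 4 on some and 1 on none. All 7 had their highest value in sample 1, with list medians of 0.69, 0.14 and -0.72 and a summed intensity of 11.14, 10.68 and 9.06. Prg2, the major basic protein, was at 10.85, 10.42 and 8.41, Epx, the eosinophil peroxidase, at 6.30, 5.66 and 4.60 and the chemokine receptor Ccr3 at 6.49, 5.15 and 4.93. Siglecf was at 6.31, 5.73 and 6.09. Prg3 and Ear6 also had ranges above 1. Epx, Ccr3, Prg3 and Ear6 were below the reference in sample 3, so the sizes of their ranges are not settled.

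**Figure D3:**
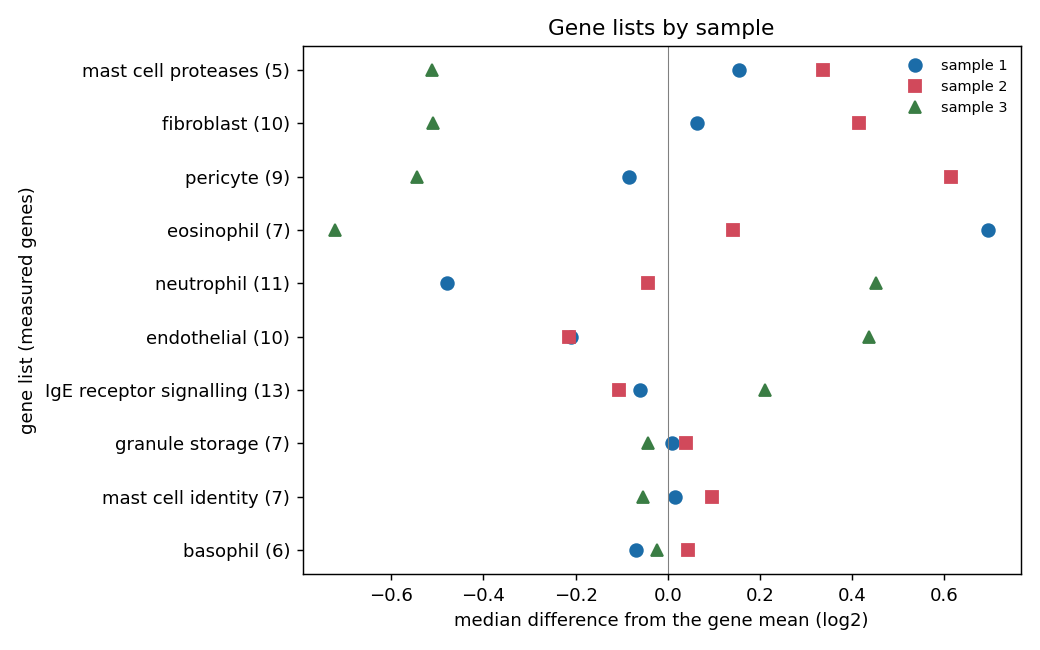
Median difference of the genes of a list from their own means (horizontal axis, log2) for samples 1 to 3 (blue circles, red squares, green triangles), with the number of measured genes of each list in brackets on the vertical axis. Sample 3 is lowest for proteases, fibroblast, pericyte and eosinophil lists, and highest for neutrophil, endothelial and IgE receptor signalling lists. It is also lowest, but close to the other samples, for granule storage (-0.043) and mast cell identity (-0.053).

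Outside these lists, the genes nearest in pattern to the median of the proteases over the 3 samples were Dse, Gkap1 and Ikbip, with root mean square differences of 0.015, 0.016 and 0.019 on the log2 scale. Dse was at 7.70, 7.89 and 7.01. The 11723 genes compared were detected on all arrays, lay outside the lists and had no Gm, Rik, LOC or receptor symbol. With 3 samples many genes are alike: 175 of them (1.49%) lay within 0.1 of the protease pattern. Within 0.1 of that of Mcpt8 lay 814 (6.94%). Nearest to Mcpt8 were Akr1b10, Mrrf and Tmem178b, the last 2 with identical values in samples 1 and 2.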

How the data were processed

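The authors deposited a table of log2 intensities for 31873 probe sets and 3 samples. Partek is the tool that the submitters' processing notes name, without a role. The handling of background, normalization and probe sets is not given in the sources used here, and the log2 scale was read from the values (2.00 to 13.18). Probe sets with 1 gene symbol in the platform annotation (23094) were used, 1764 with several symbols and 7015 unnamed here were not, and the brightest probe set stood for a gene. Samples formed 1 group, and no test between groups was possible. Detection, ranges and list medians were computed with Python 3.11.15, numpy 2.4.6 and pandas 2.3.3. Detection, ranges and quantile normalization, but not list medians, were tested on simulated data. The members and the 23 lists (172 symbols, 163 of them measured) were chosen with earlier results of these data known. Named genes were the members, the first 4 measured genes and all with a range above 1 in 8 related lists, the first 2 of other lists where described, Xist, and the 3 nearest patterns. Mitf, Enpp3, Rgs13 and Lipf were named beyond this rule. Endothelial, myogenic and T cell lists are given as counts, and dendritic, B cell, natural killer, platelet and progenitor lists by their medians in the closing section. Precision is limited by the small number of arrays, and intensities of different probe sets were not ranked. Alternatives changed the normalization, probe set summary, reference, size threshold, dim-gene filter and samples used.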

Additional observations from a re-analysis of the deposited data

How the results depend on the processing

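The count of genes with a range above the size threshold, 4, was 7 with a threshold of 0.5 and 0 with 1.5, and it lay between 0 and 2 when 1 sample was left out, where fewer samples entered. Quantile normalization and median centring left it at 4. The mean over probe sets could change no value, since each of the 9 genes had 1 probe set. The count detected on all arrays, 6, ran from 5 to 9 over its alternatives and from 6 to 7 with a sample left out. The protease difference between samples 2 and 3 ran from 0.79 to 0.87, that of Mcpt8 from 0.43 to 0.45, and the shift of one against the other from 0.36 to 0.42. Over the 9 genes no difference between samples 2 and 3 changed sign; that of Ms4a2 was 0 as deposited and 0.015 and 0.023 under quantile normalization and median centring. With all named genes as background, 3.99% had a range above 1. A sample left out moved the range of every one of the 9 genes by more than its SD in 1 setting each. With 3 values this follows from arithmetic for nearly any gene, so it says nothing about these genes. No paired analysis was possible because the labels hold 1 group. Signals near the receptor reference limit what can be said of Fcer1a, Ms4a2 and Mcpt8.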

Other observations

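For the lists not described above, the median difference from the gene mean in samples 1 to 3 was 1.08, -0.67 and -0.39 for 7 B cell genes, 0.0087, -0.45 and 0.49 for 7 dendritic cell genes, 0.050, -0.31 and 0.11 for 7 natural killer genes, 0.12, 0.049 and -0.17 for 3 platelet genes and -0.11, 0.21 and -0.073 for 6 progenitor genes. The 3 genes nearest in pattern to Hdc, chosen after its values were seen, were Scrg1, Frzb and Prss57, with root mean square differences of 0.0023, 0.0046 and 0.036. Scrg1 was at 6.29, 6.83 and 7.62 and Frzb at 5.60, 6.14 and 6.94. Prss57, a serine protease gene of neutrophil granules and the farthest of the 3, was at 6.79, 7.36 and 8.06. Of 11723 genes, 31 (0.264%) lay within 0.1 of the Hdc pattern.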
